A study of Mus musculus with 6 samples.

Results

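The replication fork and S-phase genes were followed by RNA sequencing in haematopoietic stem cells of Hlf knockout mice and their wild-type littermates. Hlf encodes hepatic leukaemia factor, which binds DNA as a PAR bZIP protein. The set was 47 genes chosen by name for their place in DNA replication, out of 23574 genes in the tables, and the MCM helicase genes were kept apart from it. Their choice used no value of these libraries, but it was made with earlier results of the same data known. Of the 47 genes, 36 had enough counts to be tested, among 10204 genes tested in all.

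The HLF KO group had 3 libraries and the WT group had 3, all on the C57BL/6 strain, numbered 1 to 3 within each genotype. Whether 1 library stands for 1 animal is not stated, and every p below therefore reflects library-to-library spread, part of which may be technical. Each library was made from the total RNA of 3000 freshly sorted cells that lacked lineage markers, CD34 and Flt3 and carried Sca-1 and c-Kit, the surface profile of a population enriched in long-term stem cells. No drug or other challenge is named in the labels. The sources used here do not give the animals' age or sex, which part of Hlf is deleted or in which cells.

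DNA replication starts at origins marked by the origin recognition complex (ORC), on which the MCM helicase is loaded in G1. The kinase of Cdc7 and Dbf4 then helps to join the helicase with Cdc45 and the GINS complex, and DNA polymerases alpha, epsilon and delta copy the strands with the sliding clamp PCNA, its loader RFC and the single-strand binding protein RPA. Many of these genes are transcribed in late G1 and S phase under E2F factors. Adult haematopoietic stem cells are known to be mostly quiescent, and entry into the cycle brings these genes up. The question of the study, per its title, concerns Hlf and that quiescence.

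The counting left some of the machinery unmeasured. The authors counted reads per RefSeq transcript, and counts fell mostly on genes listed with 1 transcript (median total 79.0), and few fell on genes listed with 2 (median total 3.0). All 32 replication genes with 1 transcript were tested, but only 4 of the 15 with several were, namely Orc4, Gins1, Pola2 and Lig1. The 11 untested genes held between 0 and 23 counts over all 6 libraries. They were Orc2 (1 count), Orc3 (0) and Orc6 (0) of the origin recognition complex, the flap endonuclease Fen1 (0), the large RPA subunit Rpa1 (9), the kinase pair Dbf4 (0) and Cdc7 (7), the fork protection gene Timeless (0) and the nucleotide synthesis genes Tyms (7), Tk1 (20) and Dut (23). Thymidylate synthase (Tyms) had 5, 2 and 0 counts in HLF KO, against 0, 0 and 0 in WT, and a count of 0 allows up to 3. Low totals of these 11 genes say nothing of how strongly they were expressed. For Orc4 and Gins1 nearly all counts, and for Lig1 most counts, fell on 1 of the listed transcripts. The values of these genes, tested or not, may therefore stand for only part of their reads. The 47 genes lie on 17 chromosomes.

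Promoters of these genes are shown because E2F-type letters, which the choice of genes did not use, were common in them. RefSeq promoters (GRCm38.p6, 250 bases before to 50 after each start) were found for 39 of the 47 genes. The letters searched on both strands were TTTCCCGC, TTTCGCGC, TTTGCCGC and TTTGGCGC. At least 1 of them stood in the promoters of 10 of the 28 tested replication genes with a promoter in the table (35.7%), against 4.91% of 8052 tested genes and 2.6% of all 27025 genes with one. The 4 shown belong to the genes of smallest p among those that hold the letters. They are given 5′ to 3′ in the sense of the gene, with the matched letters in capitals. The stretches are chr7:100121473-100121722 (minus strand) for Pold3, chr12:69228161-69228410 (minus strand) for Pole2 and chr4:108579234-108579483 (plus strand) for Orc1, each with 220 bases before the start and 30 after it. That of Pold1 is chr7:44548766-44548795 (minus strand) and holds only the last 30 of the 50 transcribed bases searched.

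Pold1: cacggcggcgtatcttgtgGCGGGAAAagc

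Pold3: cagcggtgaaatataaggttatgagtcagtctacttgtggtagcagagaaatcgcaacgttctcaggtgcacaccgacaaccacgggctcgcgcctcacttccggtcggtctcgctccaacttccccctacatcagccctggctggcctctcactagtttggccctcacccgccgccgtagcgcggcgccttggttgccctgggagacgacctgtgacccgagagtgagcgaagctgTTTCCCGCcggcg

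Pole2: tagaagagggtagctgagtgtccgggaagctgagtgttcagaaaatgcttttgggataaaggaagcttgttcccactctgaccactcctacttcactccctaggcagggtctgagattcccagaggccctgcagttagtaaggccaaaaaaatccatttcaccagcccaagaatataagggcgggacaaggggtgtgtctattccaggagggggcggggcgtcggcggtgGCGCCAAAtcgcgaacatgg

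Orc1: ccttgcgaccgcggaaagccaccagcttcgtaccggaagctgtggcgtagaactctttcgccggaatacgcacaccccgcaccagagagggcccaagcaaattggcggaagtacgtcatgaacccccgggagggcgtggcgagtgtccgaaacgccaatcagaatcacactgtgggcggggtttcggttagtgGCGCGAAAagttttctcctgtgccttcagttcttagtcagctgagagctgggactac

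The Orc1 match begins 27 bases before the start, whereas those of Pole2, Pold3 and Pold1 begin at transcribed bases 11, 18 and 40. None of the 4 matches overlaps the other letters searched. The other replication genes with a match were Gins3, Pola1, Rfc3, Clspn, Pole4 and Lig1, together with the untested Orc3. Counted by gene over all its listed promoters, the letters CCAAT stood in 16 of these 28 genes (57.1%, against 42.2% of tested genes) and TTTGAA in 3 (10.7%, against 13.9%). The PAR bZIP letters TTACGTAA, TTATGTAA and TTACATAA were in 0 of these 28 genes, and in 1 of the 39 when untested genes are included, Timeless (0.845% of tested genes). By gene, E2F-type letters stood in 1 of the 7 whose genotypes did not overlap, and in 9 of the 21 whose genotypes did. A match is a run of letters and was not tested as a binding site.

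The libraries held between 8346335 and 11998296 counts, and each HLF KO library was deeper than each WT library. Hlf itself had 28.3, 37.6 and 37.3 CPM (library-scaled counts by TMM, edgeR's trimmed mean of M values, set to a common total) in HLF KO libraries 1, 2 and 3, against 1370.0, 1662 and 1114 CPM in WT libraries 1, 2 and 3. It was the 1 gene of 10204 called by edgeR's quasi-likelihood test at an adjusted p under 0.05 (log2 fold change -5.33, SE 0.26, adjusted p = 1.91e-06). WT libraries stood further from each other (Pearson's r across genes of log2 CPM 0.749 to 0.805) than HLF KO libraries did (0.869 to 0.883). Xist had 19229 counts in HLF KO library 3 and 16730 in WT library 3, and at most 34 in any other library.

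None of the 36 tested replication genes passed the test, and the smallest adjusted p among them was 0.574 (edgeR), while over all genes 0.0% were called higher and 0.0098% lower. DESeq2, which called 0.231% of genes higher and 1.03% lower, and limma-voom also called 0 of the 36. Most replication genes nevertheless had higher values in HLF KO. Of the 36, 31 had positive log2 fold changes, where 47.2% of all tested genes did, and 5 had negative ones (52.8%). Their median was 0.48, where that of all tested genes was -0.05. Among 2264 tested genes within the same middle range of mean level, 48.3% were positive. The 36 genes were all read in the same libraries, so their signs are not independent of one another. At an unadjusted p under 0.05 there were 5 replication genes with higher values (2.63% of all genes) and 0 with lower ones (4.65%). Every HLF KO library lay above every WT library for 9 (7.52% of all genes) and below for 0 (6.85%), and the genotypes overlapped for the other 27. In bulk RNA, more cells that express these genes and more of their RNA per cell cannot be told apart.

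**Figure D1:**
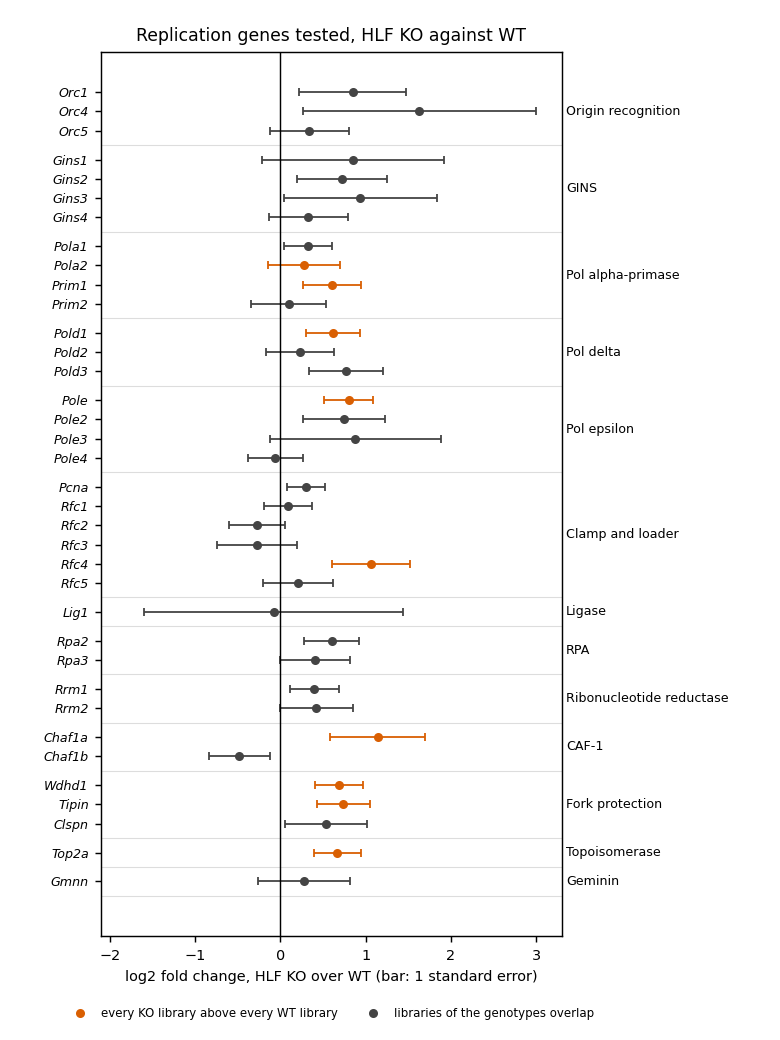
Log2 fold change of HLF KO over WT for the 36 tested replication genes, grouped by role, with bars of 1 standard error from edgeR (3 libraries per genotype). Dots in orange mark the 9 genes for which every HLF KO library lay above every WT library, and 31 of the 36 dots lie right of 0.

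The spread of these genes over the libraries was uneven. Summed over the 47 genes, the level was 4495.1, 5549.3 and 3993.5 CPM in HLF KO libraries 1, 2 and 3, against 3333.1, 3297.7 and 3772.3 CPM in WT libraries 1, 2 and 3. The genotypes did not overlap, although HLF KO library 3 and WT library 3 lay close together. Without Pcna and Top2a, the most abundant of the genes, the sums were 3149.2, 3606.1 and 2856.5 CPM in HLF KO, against 2409.9, 2209.9 and 2626.9 CPM in WT. HLF KO library 2 was the highest of the 6 for 19 of the 36 tested genes (14.5% of all tested genes), HLF KO library 1 for 8 (11.6%) and HLF KO library 3 for 4 (13.7%). WT library 1 was the lowest for 14 (29.5% of all tested genes), WT library 2 for another 14 (21.0%) and WT library 3 for 2 (12.7%), so that one or other of WT libraries 1 and 2 was lowest for 28 (50.5%). The median of log2 CPM minus each gene's own mean was 0.25, 0.45 and 0.03 in HLF KO, against -0.44, -0.23 and 0.01 in WT. Over all tested genes, the mean log2 CPM was 4.73, 4.69 and 4.7 in HLF KO, against 4.48, 4.63 and 4.81 in WT. Genes with a count numbered 12207, 12097 and 12133 in HLF KO, against 10796, 11341 and 12331 in WT. WT libraries 1 and 2 were thus the lowest in both, and the part of this in the replication values was not tested.

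Both libraries numbered 3, which held abundant Xist, had replication values close to each other. Of the 36 genes, 21 were higher in HLF KO library 3 than in WT library 3, with a median log2 difference of 0.06, a pair that allows no test. Between the libraries with low Xist, HLF KO 1 and 2 against WT 1 and 2, 33 of 36 were positive with a median log2 fold change of 0.67, and edgeR called 0, a comparison chosen after seeing the data. Leaving out WT library 3 gave a median of 0.59 over all tested replication genes, and leaving out HLF KO library 2 gave 0.39 with 28 of 36 positive. The sex of the animals behind each library was not used as a term, and whether Xist level bears on the replication genes was not tested.

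**Figure D2:**
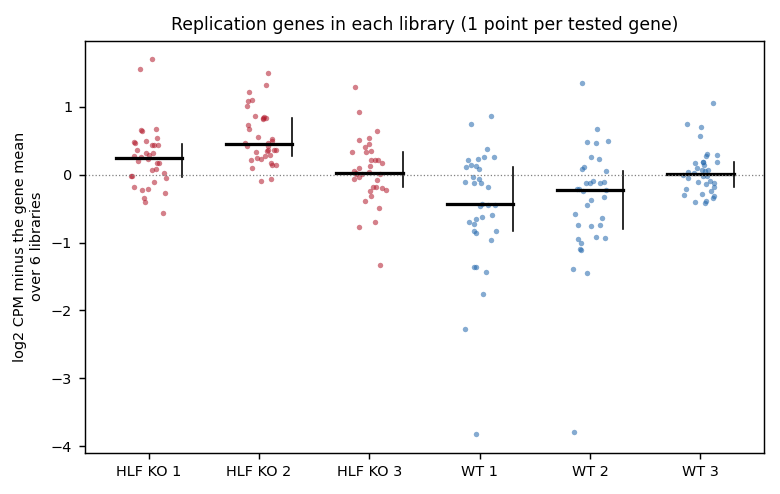
Each point is 1 of the 36 tested replication genes in 1 library, as log2 CPM minus that gene's mean over the 6 libraries, with HLF KO in red and WT in blue. The thick line is the median and the thin line runs between the quartiles, with medians of 0.25, 0.45 and 0.03 in HLF KO and -0.44, -0.23 and 0.01 in WT.

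Values of single genes are given for libraries 1, 2 and 3 of each genotype in that order, starting with the origin factors, of which 3 of 6 ORC genes were tested. Orc1, the ORC subunit gene known to be under E2F control, had 45, 69.6 and 32.6 CPM in HLF KO, against 12.5, 16.7 and 52.6 CPM in WT, and WT library 3 lay above HLF KO libraries 1 and 3. Orc1 stood at 0.85 log2 units (SE 0.63, adjusted p = 0.778 by edgeR), and ranged from 0.51 without WT library 1 to 1.75 without WT library 3. Orc5 stood at 0.34 log2 units (SE 0.46), and Orc4, which had 236 counts in all, at 1.63 log2 units (SE 1.37). All 4 GINS genes were positive, with wide errors. Gins2 had 54.5, 59.4 and 153 CPM in HLF KO, against 24.2, 67.5 and 70.7 CPM in WT, and its log2 fold change of 0.72 (SE 0.53, adjusted p = 0.778 by edgeR) was 0.08 without HLF KO library 3 and 0.38 without WT library 1. Gins1, Gins3 and Gins4 were at 0.85 log2 units (SE 1.07), 0.94 (SE 0.90) and 0.33 (SE 0.46), and Gins4 was -0.09 without HLF KO library 2.

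DNA polymerase epsilon, the main leading-strand enzyme, had 4 tested genes, of which 3 had positive values. Its catalytic subunit gene Pole had 203, 206 and 150.2 CPM in HLF KO, against 124, 82.7 and 115 CPM in WT, with no overlap. It stood at 0.80 log2 units (SE 0.29, adjusted p = 0.574 by edgeR), the smallest p of the set. Pole2, which encodes the second subunit, had 44.6, 108 and 68 CPM in HLF KO, against 27.5, 42.5 and 61.2 CPM in WT, where HLF KO library 1 lay below WT library 3. Its log2 fold change of 0.75 (SE 0.48, adjusted p = 0.744 by edgeR) was 0.38 without HLF KO library 2. The histone-fold subunits had unlike signs, with Pole3 at 0.88 log2 units (SE 1.00) and Pole4 at -0.06 log2 units (SE 0.32). Pole3 had only 6 counts in WT library 2, and its log2 fold change was 0.32 without that library and 1.60 without WT library 1. Pole4 turned sign without WT library 1 (0.02).

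DNA polymerase delta, which extends the lagging strand, had 3 tested genes in this set, all with positive values. Its catalytic subunit gene Pold1 had 113, 128 and 104 CPM in HLF KO, against 68.1, 85.6 and 70.8 CPM in WT, so that all HLF KO libraries lay above all WT libraries. Its fold change on the log2 scale was 0.62 (SE 0.32, adjusted p = 0.698 by edgeR). Pold3, an accessory subunit gene, had 98.3, 132 and 68.6 CPM in HLF KO, against 47.7, 37.5 and 90 CPM in WT, and here WT library 3 lay within the HLF KO range. It stood at 0.77 log2 units (SE 0.43, adjusted p = 0.717 by edgeR), and at 1.23 without WT library 3. Pold2, another subunit gene, was at 0.23 log2 units (SE 0.40), and at -0.03 without WT library 1. The subunit gene Pold4 was not part of the set.

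Polymerase alpha and primase make the primers that the other polymerases extend. Prim1, the catalytic primase subunit gene, had 113, 109.9 and 82.2 CPM in HLF KO, against 59.8, 60 and 80.2 CPM in WT, a set of values that just fails to overlap between HLF KO library 3 and WT library 3. Prim1 stood at 0.61 log2 units (SE 0.34, adjusted p = 0.717 by edgeR). The large primase subunit gene Prim2 was at 0.10 log2 units (SE 0.44) and turned sign without WT library 1 (-0.13) or HLF KO library 2 (-0.16), and the catalytic polymerase gene Pola1 was at 0.32 log2 units (SE 0.28).

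Pola2, the regulatory subunit gene of polymerase alpha, has 2 listed transcripts that both held counts, and their values differed in opposite directions. Summed over both, Pola2 had 49.9, 52.7 and 44.6 CPM in HLF KO, against 40.7, 38.3 and 41.8 CPM in WT, and its log2 fold change was 0.28 (SE 0.42, adjusted p = 0.919 by edgeR). In the GENCODE M21 models cross-referenced to them, the transcripts of 2421 and 2391 bases share their first 1946 bases and then differ to the end, so that the coding sequence ends at base 2098 in the longer one and at base 1996 in the shorter. The longer transcript had 30, 32.2 and 29.2 CPM in HLF KO, against 18.6, 16.3 and 16.6 CPM in WT. The shorter one had 19.9, 20.4 and 15.4 CPM in HLF KO, against 22.1, 21.9 and 25.2 CPM in WT. The genotypes did not overlap for either, the longer being higher and the shorter lower in HLF KO, with means of 30.5 ± 1.57 CPM in HLF KO and 17.2 ± 1.22 CPM in WT for the longer and 18.6 ± 2.75 CPM in HLF KO and 23.1 ± 1.8 CPM in WT for the shorter (SD, n = 3 each). How reads of the shared bases were counted is not known here. The split was picked out after its values were seen and has no test.

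The sliding clamp and its loader were mixed. Pcna, which encodes the clamp, had 644, 855 and 536 CPM in HLF KO, against 580.4, 523 and 553 CPM in WT, and HLF KO library 3 lay below WT libraries 1 and 3. The annotation holds copies of this gene (Pcna-ps1 and Pcna-ps2), and reads they share may have been split. Its log2 fold change of 0.30 (SE 0.22, adjusted p = 0.774 by edgeR) was 0.11 without HLF KO library 2 and 0.45 without HLF KO library 3. Among the loader genes, Rfc4 had 81.8, 93.1 and 60.8 CPM in HLF KO, against 50.9, 19.8 and 42.2 CPM in WT, without overlap, and stood at 1.06 log2 units (SE 0.46, adjusted p = 0.667 by edgeR). The others did not follow it. Rfc1, the large subunit gene, was at 0.09 log2 units (SE 0.28), Rfc5 at 0.21 log2 units (SE 0.41), Rfc2 at -0.27 log2 units (SE 0.33) and Rfc3 at -0.27 log2 units (SE 0.47). The sign turned for Rfc2 without WT library 1 (0.15), for Rfc1 without HLF KO library 1 (-0.02) and for Rfc5 without HLF KO library 2 (-0.18). Exons of Rfc4 overlap those of Eif4a2 and exons of Rfc5 those of Wsb2 on the other strand in GENCODE M21, and since the use of strand in the counting is not given, reads of these neighbours cannot be told apart from theirs. Of the 36 tested genes, 13 share exon bases with another annotated gene, 10 of them only on the other strand (Orc1, Orc4, Gins2, Pole, Rfc2, Rfc4, Rfc5, Lig1, Chaf1a and Wdhd1) and Orc5, Pole2 and Top2a on the same one.

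Of the fork-associated factors, Wdhd1 and Tipin did not overlap between genotypes. Wdhd1, the counterpart of yeast Ctf4 that ties polymerase alpha to the helicase, had 144, 159 and 149.9 CPM in HLF KO, against 86.5, 101 and 93.5 CPM in WT. Its mean was 151 ± 7.49 CPM in HLF KO and 93.7 ± 7.24 CPM in WT (SD, n = 3 each), a gap wider than the spread within either genotype. On the log2 scale the difference was 0.69 (SE 0.28, adjusted p = 0.642 by edgeR). Tipin, the partner of Timeless in fork protection, had 163, 155 and 152 CPM in HLF KO, against 65.8, 110.5 and 106 CPM in WT, where the lowest HLF KO library lay far above the highest WT library. Its log2 fold change was 0.74 (SE 0.31, adjusted p = 0.65 by edgeR). Clspn, which encodes the checkpoint mediator claspin, stood at 0.54 log2 units (SE 0.48), at 0.19 without WT library 1, the lowest of the 6, and at 0.25 without HLF KO library 2, the highest.

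Top2a, the topoisomerase that untangles replicated chromosomes, was among the most abundant of the genes. It had 702, 1088 and 601 CPM in HLF KO, against 343, 565 and 593 CPM in WT, and HLF KO library 3 lay just above WT library 3. Top2a stood at 0.67 log2 units (SE 0.28, adjusted p = 0.647 by edgeR), and at 0.40 without HLF KO library 2. Rpa2, the middle subunit gene of RPA, had 119, 145 and 160.4 CPM in HLF KO, against 122, 72.5 and 84.3 CPM in WT, with HLF KO library 1 below WT library 1. It stood at 0.60 log2 units (SE 0.32, adjusted p = 0.706 by edgeR), and the small subunit gene Rpa3 at 0.41 log2 units (SE 0.41).

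**Figure D3:**
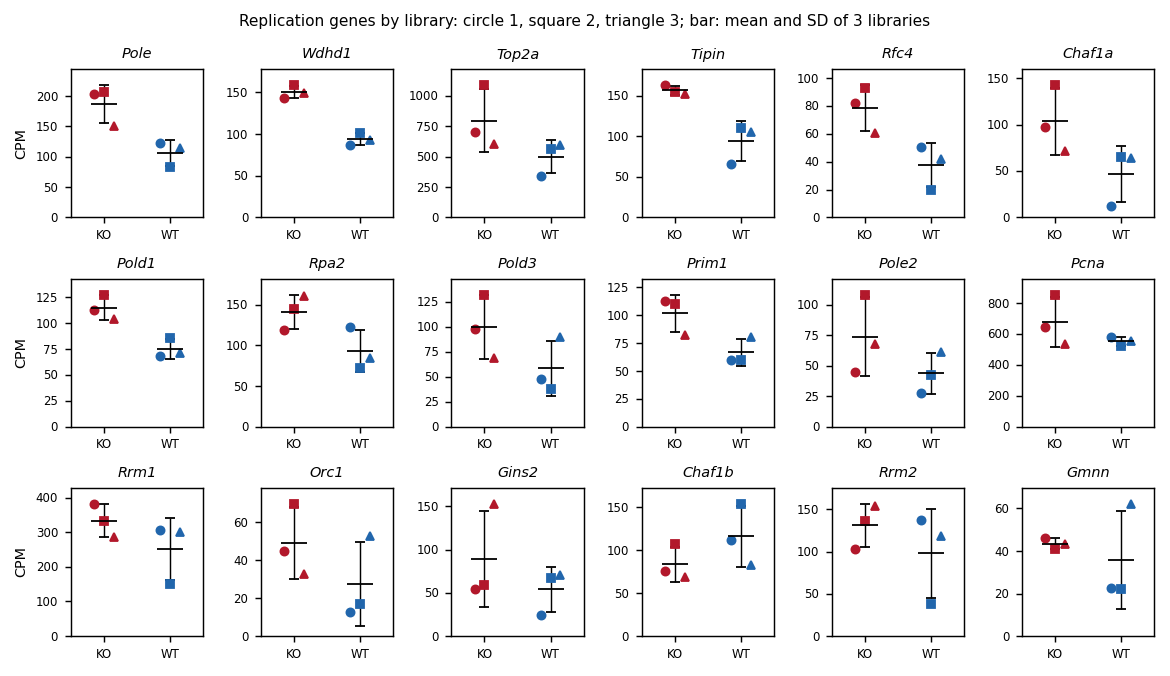
CPM (y axis, from 0) of the 16 tested replication genes of smallest p in order of p, followed by Rrm2 and Gmnn, in HLF KO (red, left) and WT (blue, right) libraries, with the mean and SD of 3 libraries. Wdhd1, Tipin and Pole show 3 HLF KO points above 3 WT points, whereas in Rrm2 and Gmnn the genotypes overlap. Circles, squares and triangles are libraries 1, 2 and 3.

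The histone chaperone CAF-1, which places histones H3 and H4 on new DNA, showed opposite signs in its subunit genes. Chaf1a, the large subunit gene, had 97.3, 142 and 71.1 CPM in HLF KO, against 12.5, 64.6 and 64.2 CPM in WT, with no overlap, and stood at 1.14 log2 units (SE 0.56, adjusted p = 0.689 by edgeR). Without WT library 1, its lowest, the value was 0.70. Chaf1b, the middle subunit gene, had 75.8, 107 and 68.3 CPM in HLF KO, against 112, 154 and 83.1 CPM in WT, where the genotypes overlapped, and the log2 fold change was -0.48 (SE 0.36, adjusted p = 0.782 by edgeR), or -0.22 without WT library 2. Within a library, the ratio of Chaf1a to Chaf1b CPM was 1.28, 1.33 and 1.04 in HLF KO, against 0.111, 0.42 and 0.772 in WT. Every HLF KO library had a ratio above 1 and every WT library one below 1, a contrast picked after seeing the values and not tested. Exons of Chaf1a overlap those of Ubxn6 on the other strand.

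**Figure D4:**
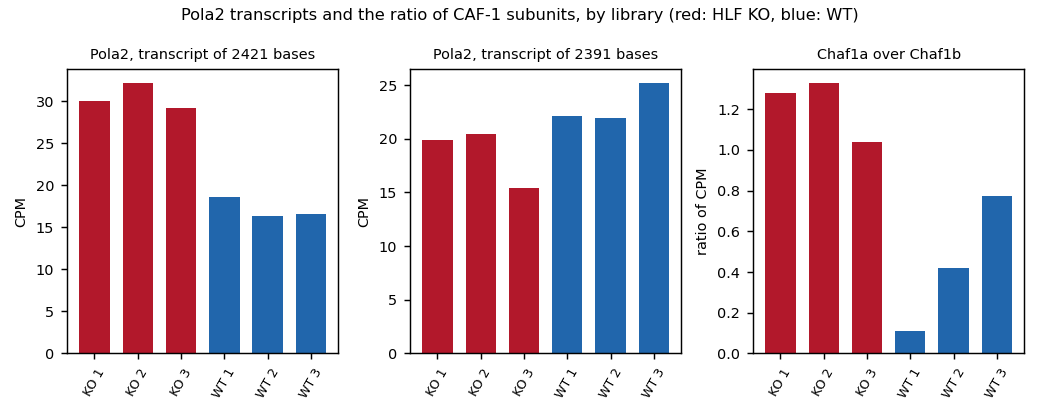
CPM of the Pola2 transcripts of 2421 bases (left) and 2391 bases (middle), and the ratio of Chaf1a to Chaf1b CPM (right), in each HLF KO (red) and WT (blue) library. The longer Pola2 transcript and the ratio are higher in all HLF KO libraries, and the shorter transcript is lower in all of them.

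Nucleotide supply was represented by ribonucleotide reductase only. Rrm1, its large subunit gene, had 382, 333 and 287 CPM in HLF KO, against 308, 149 and 302 CPM in WT, where WT library 2 was far below the other WT libraries. For Rrm1 the log2 fold change was 0.40 (SE 0.29, adjusted p = 0.774 by edgeR), and 0.14 without that library. Rrm2, the small subunit gene whose RNA is known to peak in S phase, had 103, 136 and 154 CPM in HLF KO, against 137, 38.4 and 118 CPM in WT, with WT library 2 again the lowest and WT library 1 above HLF KO libraries 1 and 2. Its log2 fold change of 0.42 (SE 0.43, adjusted p = 0.858 by edgeR) was 0.04 without WT library 2 and 0.76 without WT library 1, so its size rested on single WT libraries.

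Geminin (Gmnn), the inhibitor of the loading factor Cdt1 that is present from S phase to mitosis, had 46.2, 40.9 and 43.2 CPM in HLF KO, against 22.8, 22.2 and 62.2 CPM in WT. The HLF KO libraries lay close together, and WT library 3 lay above all of them while the other WT libraries lay below. Gmnn stood at 0.28 log2 units (SE 0.54, adjusted p = 0.94 by edgeR), at 0.95 without WT library 3, at 0.06 without WT library 1 and at 0.04 without WT library 2. Lig1, the ligase of lagging-strand fragments, had 70 counts in all on its 3 listed transcripts. It stood at -0.08 log2 units (SE 1.52), an error that leaves its direction unread. Its sign turned without WT library 2 (0.03) or 3 (0.60), and without HLF KO library 1 (0.26) or 3 (0.19).

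Each library was left out in turn. For 9 of the 36 tested genes (Orc4, Pola2, Prim1, Pold1, Pole, Rfc4, Rpa2, Wdhd1 and Tipin), no single omission turned the sign or moved the log2 fold change by over 1.5 times. Orc4 is among them although its values were imprecise, with 8.32, 8.01 and 0.952 CPM in HLF KO, against 1.65, 1.14 and 2.77 CPM in WT, where HLF KO library 3 was the lowest of all. For 19 the size moved by more than that with the sign kept, and for 8 the sign turned. The median coefficient of variation of the 36 genes was 24.5% in HLF KO and 35.9% in WT, against 31.8% and 49.9% over all tested genes, and it was larger in WT for 25 of the 36, as for 7122 of 10196 of all tested genes with a value.

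Set against transcript length, the replication genes spanned a wide range of levels. Levels in CPM per kilobase of the cross-referenced GENCODE M21 transcript were taken for the 32 genes with 1 listed transcript. Pcna was the highest, at 447 ± 107 in HLF KO and 364 ± 18.9 in WT CPM per kilobase (SD, n = 3 each). Next came Top2a, at 153 ± 49.3 in HLF KO and 95.8 ± 26.2 in WT, and Rpa3, at 144 ± 35.7 in HLF KO and 108 ± 43.3 in WT, which did not differ from each other beyond their spread. Gins3 was the lowest, at 5.69 ± 1.53 in HLF KO and 2.96 ± 1.61 in WT, below Pole3 at 11.9 ± 3.42 in HLF KO and 6.48 ± 5.66 in WT, with ranges that overlap in WT.

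Subunits of 1 complex did not have equal levels per length. In polymerase epsilon the means in HLF KO were 26 CPM per kilobase for Pole, 43.1 for Pole2, 11.9 for Pole3 and 49.5 for Pole4. For ribonucleotide reductase, Rrm1 had 83.5 ± 12 in HLF KO and 63.3 ± 22.5 in WT and Rrm2 59.7 ± 11.6 in HLF KO and 44.6 ± 23.9 in WT, ranges that overlap in WT. In CAF-1, Chaf1a had 18.7 ± 6.51 in HLF KO and 8.5 ± 5.41 in WT CPM per kilobase, and Chaf1b 43.5 ± 10.6 in HLF KO and 60.5 ± 18.5 in WT. Chaf1b had the higher mean level per length in both genotypes.

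**Figure D5:**
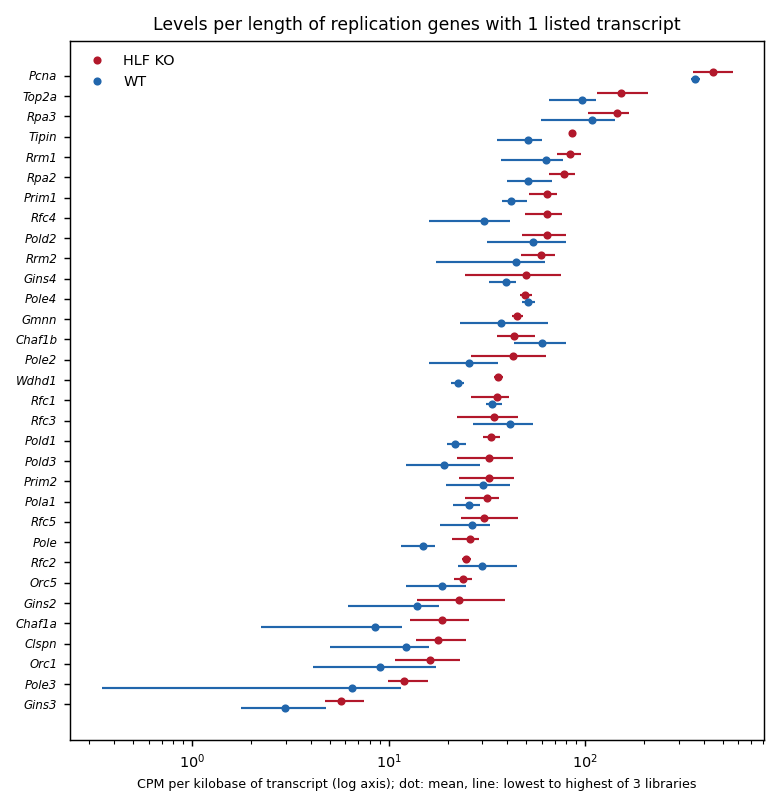
CPM per kilobase of transcript (log axis) of the 32 replication genes with 1 listed transcript, ordered by their mean in HLF KO, with HLF KO in red above WT in blue. Dots are means and lines run from the lowest to the highest of 3 libraries, and Pcna lies at the top and Gins3 at the bottom.

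The rest of the replication pathway was read from a list of 55 genes that holds the MCM helicase, licensing, checkpoint and chromatin assembly genes, of which 50 were tested. None was called by edgeR, DESeq2 or limma-voom (smallest edgeR adjusted p = 0.466). DESeq2 came nearer to the threshold, with adjusted p of 0.0706 for Mcm3 and 0.0854 for Mcm5. Of the 50, 42 were positive (47.2% of all tested genes), with a median log2 fold change of 0.40, and these signs too are not independent. At an unadjusted p under 0.05, 7 had higher values (2.63% of all genes) and 0 lower ones (4.65%). HLF KO lay wholly above WT for 12 (7.52% of all genes) and wholly below for 1 (6.85%), the topoisomerase gene Top3a (15.1, 21.8 and 17.7 CPM in HLF KO, against 24.8, 27.6 and 37.6 CPM in WT), named after its values were seen. The 4 of smallest p were the helicase subunit genes Mcm3, Mcm5 and Mcm4 and the DNA ligase gene Lig3. Mcm3 had 322, 439.5 and 287 CPM in HLF KO, against 142, 202 and 199.9 CPM in WT. Mcm4 had 278, 333 and 275 CPM in HLF KO, against 156, 170.0 and 222 CPM in WT. The genotypes did not overlap for either. Mcm5 had 240.3, 254 and 251 CPM in HLF KO, against 137, 144 and 134 CPM in WT. Lig3 had 132, 144 and 98.9 CPM in HLF KO, against 65, 69.4 and 64.5 CPM in WT. In these genes the 3 WT libraries lay close together below all HLF KO libraries, and Lig3 stood at 0.91 log2 units (SE 0.32, adjusted p = 0.563 by edgeR). Mcm3 was at 0.95 log2 units (SE 0.26, adjusted p = 0.466 by edgeR), Mcm4 at 0.69 log2 units (SE 0.24, adjusted p = 0.563 by edgeR) and Mcm5 at 0.84 log2 units (SE 0.24, adjusted p = 0.466 by edgeR). The 5 untested genes were Cdc6, Cdc45, Ssrp1, Uhrf1 and Dnmt1, each with at most 19 counts in all.

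Marker lists of the sorted cells and of others are set beside the replication values, and edgeR called 0 genes in any of them. Stem cell markers summed to 880.9, 830.5 and 992.6 CPM in HLF KO, against 1045.5, 1100.4 and 1053.8 CPM in WT, and 4 of the 9 tested of 12 were positive (Slamf1, Gata2, Ctnnal1 and Hoxb5). At an unadjusted edgeR p under 0.05, 3 had lower values (Procr, Mecom and Fgd5, where 4.65% of all genes did) and 0 had higher ones (2.63%). The markers of this list are known for their place in stem cell identity. Kit, which marks the sort, had 1 count on 2 listed transcripts, and Ly6a (Sca-1) had 0, so they do not check the sort. Markers of committed progenitors (8 genes, 5 tested, 2 positive) summed to 108.2, 163.2 and 140.6 CPM in HLF KO, against 60.2, 91.8 and 153.0 CPM in WT, with Dntt at 0. Megakaryocyte markers (8 genes, 7 tested, 6 positive) summed to 756.7, 870.6 and 948.4 CPM in HLF KO, against 546.1, 326.1 and 381.1 CPM in WT. Every HLF KO sum lay above every WT sum, with Gp1bb at 0, and 3 of the genes had higher values at that p and 0 lower. Erythroid markers (11 genes, 9 tested, 7 positive) summed to 896.9, 1175.3 and 942.9 CPM in HLF KO, against 882.7, 722.1 and 769.7 CPM in WT, with Hba-a1 and Hbb-bt at 0, and at that p 2 had higher values and 1 lower. HLF KO library 2 and WT library 2 were the highest and lowest of the 6 here.

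Granulocyte and monocyte markers (13 genes, 8 tested, 0 positive) summed to 328.3, 413.1 and 490.1 CPM in HLF KO, against 633.6, 638.2 and 3411.9 CPM in WT, with S100a9 at 0, and 4 of the genes had lower values at that p. WT library 3, the WT library with the highest replication sum, was thus also far the highest in these markers. Mpo had 56.9, 136.4 and 57.7 CPM in HLF KO, against 36.5, 45.6 and 1372.1 CPM in WT. For Mpo, every HLF KO library lay above WT libraries 1 and 2 and below WT library 3. Ctsg had the same order, but near the floor, with 13, 32 and 1 counts in HLF KO, against 0, 0 and 814 in WT. Elane, S100a8, Ly6c2 and Lyz2 did not have it. Prtn3, by contrast, was lower in every HLF KO library than in every WT library. These genes were picked after their values were seen. B-cell markers (9 genes, 4 tested, 0 positive, 1 lower at that p) summed to at most 53.5 CPM in HLF KO, against 83.6 to 162.3 CPM in WT. T and natural killer cell markers (10 genes, 7 tested, 4 positive, 1 higher at that p) summed to 330.6 to 508.8 CPM in HLF KO, against 159.6 to 234.6 CPM in WT, with Cd8a and Lck at 0. Most of these sums in HLF KO came from Nkg7. It had 254, 298 and 463 CPM in HLF KO, against 71.4, 156 and 97.3 CPM in WT. The other tested genes had unlike signs, positive for Cd3g (log2 fold change 4.09, SE 1.88), Klrd1 (1.22, SE 1.63) and Cd3d (0.84, SE 1.47). Cd3e (-1.14, SE 0.87), Cd4 (-2.17, SE 1.05) and Il2rb (-0.18, SE 0.87) had negative values. Macrophage, endothelial and stromal, and mast cell and basophil markers overlapped between genotypes, with no sum above 197.9 CPM. Cd163 and Pdgfra were at 0. The part of these cells in the replication values was not tested.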

How the data were processed

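RNA of 3 HLF KO and 3 WT libraries was sequenced by the submitters. The authors deposited whole-number counts per RefSeq transcript, not normalised, and each library lists the same 30858 transcripts. TopHat and the mouse build mm9 are named per the submitters' processing notes. Versions, the counting tool, its annotation, its use of strand and its handling of reads shared between transcripts: none of these is given in the sources used here. Reads of near-identical copies, such as the Pcna pseudogenes, may have been split or dropped.

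Of these transcripts, 30363 took their symbol from RefSeq (GRCm38.p6), 179 took it from GENCODE, and 316 had none. Counts were summed per gene, and as the builds differ no coordinates of the counted genes are printed. Promoter coordinates are those of GRCm38.p6. Lengths are those of GENCODE M21 transcripts.

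Library totals of 8346335 to 11998296 counts set the precision, which with 3 libraries per genotype is limited more by their spread (median SE of a log2 fold change 0.59 over all tested genes). edgeR 4.0.16 in R 4.3.3 was run with TMM factors, filterByExpr (min.count 10, min.total.count 15) and its quasi-likelihood F test, robust, on the 6 libraries together, with Benjamini-Hochberg adjustment over 10204 genes. Standard errors were derived from F, and a prior count of 2 was added for log2 CPM. DESeq2 1.42.0 and limma-voom (limma 3.58.1) were alternatives, and the fitting steps were tested on simulated data.

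The genes followed and all lists were chosen with earlier results of these data known. Library values are given for the 16 tested genes of smallest p and for Pcna, Top2a, Rrm2, Gmnn and Tyms, and the 4 of smallest p were named from the other replication genes. A gene outside this rule is said to be chosen after its values were seen. The marker lists hold 1 further item that is not reported here.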

Additional observations from a re-analysis of the deposited data

How the results depend on the processing

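With each setting tried on all 6 libraries or with 1 left out, 0 of the tested replication genes and 0 of the other replication genes were called. The number of genes called over the whole table was 1 in the fit reported, 120 with DESeq2 (22 higher and 98 lower in HLF KO), 9 with no filter on low counts, 2 with the replicate number as a block and 1 to 3 with 1 library left out. The numbers were not taken as pairs. Across genes, deviations of libraries that share a replicate number had r of -0.01, -0.0216 and 0.0204 for numbers 1, 2 and 3. With 3 libraries per genotype these r cannot exclude pairing, and both libraries numbered 3 held abundant Xist. With the replicate block the median log2 fold change of the tested replication genes was 0.60, with 32 of 36 positive. It was 0.48 in the fit reported, 0.39 to 0.59 with 1 library left out, 0.47 to 0.61 under the other settings, and 0.67 over the libraries with low Xist, an alternative chosen after seeing the data and run for these genes only, with 0 called. The log2 ratio of the genotypes' mean summed levels was 0.43, and 0.41 to 0.50 under other scalings. The median of all genes was -0.05 with TMM and 0.02 with upper-quartile factors. Under alternatives, 345 values were read for the 16 tested genes of smallest p, Rrm2, Gmnn, Hlf and the 4 named other replication genes. Of these, 345 kept their sign and their side of the threshold, but not always their size. Gins2, for example, went from 0.72 to 0.08 without HLF KO library 3. The 8 tested replication genes whose sign turned with 1 library left out are not among the genes so counted. Depth and listed transcripts limit the 11 untested genes, of which none is read as unchanged.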

Other observations

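Chek1, the checkpoint kinase gene, and Hells, a chromatin remodelling gene of cycling cells, belong to the other replication genes and varied widely within both genotypes. Chek1 had 473, 102 and 61.9 CPM in HLF KO, against 166, 41.4 and 28.4 CPM in WT. Hells had 202, 124 and 60.7 CPM in HLF KO, against 158, 39.7 and 34.7 CPM in WT. In both genes library 1 of each genotype was the highest of its group, and library 3 the lowest, while the log2 fold changes were 1.43 (SE 0.77, adjusted p = 0.706 by edgeR) and 0.73 (SE 0.60, adjusted p = 0.804 by edgeR). These genes were picked after their values were seen, and the pattern was not tested.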
